A study of Mus musculus with 48 samples.

Results

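The DEAD and DEAH box helicase genes are described here across a panel of ribosomal protein mutants. Members are all genes of the count table whose symbol begins with Ddx or Dhx, followed by a number and at most 1 letter. This rule found 53 genes of 55487. It reads the symbol alone, but the members and the role lists used below were chosen with earlier results of these data known. All libraries came from Ba/F3, a murine pro-B line whose growth depends on interleukin 3. Besides WT there were 4 loss-of-function genotypes (Rpl5+/-, Rpl11+/-, Rpl22+/- and Rpl22-/-). The other 3 genotypes carried a substitution in a ribosomal protein, R98S in Rpl10, P131S in Rps15 or H137Y in Rps15. The labels give each point mutation on both alleles. Mutants are clones obtained with CRISPR-Cas9, with 3 clones for each of the 8 genotypes, WT included. All cells grew with 10% fetal calf serum and 1 ng/ml interleukin 3 and received 0.1 mg/ml cycloheximide, an inhibitor of translation elongation, for 1 min. Every lysate was then split into a part for poly(A)-selected RNA-seq and a part for ribosome footprinting, in which fragments of 28 to 30 nt protected by ribosomes are sequenced. The 48 libraries therefore gave RNA, footprints, and translational efficiency, which is how far footprints changed relative to RNA.

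DEAD and DEAH box proteins use ATP to unwind RNA duplexes or to remodel complexes of RNA and protein. They take part in nearly every step of gene expression, from ribosomal RNA processing and ribosome assembly in the nucleolus to splicing, export, translation and decay of messenger RNA, and some members sense viral RNA. Ribosomal proteins such as those mutated here are assembled into ribosomal subunits with the help of many of these helicases, and Ddx6 represses translation and promotes decapping of messenger RNA together with the CCR4-NOT complex.

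Library totals were 13029073 to 38258559 estimated counts in RNA and 15598994 to 72044439 in footprints, with the lowest footprint total in clone 60 of Rpl22+/-. RNA of the targeted gene was 67.2% of WT in Rpl5+/- and 64.1% in Rpl11+/-, and 72.03% and 66.7% in Rpl22+/- and Rpl22-/-. Rpl22 footprints ranged from 274 to 1544 CPM (the count of a gene relative to the scaled library total) in the libraries labelled Rpl22-/-, against 1429 to 1596 in Rpl22+/- and 2350 to 2786 in WT. Clone 30 carried the highest of the Rpl22-/- values, so the counts of RNA calls and the called members of that genotype are also given without it. A point mutation cannot be read from gene counts. Of 14 pro-B and Ba/F3 markers, Ptprc and the interleukin 3 receptor genes Il3ra, Csf2rb and Csf2rb2 were at 25.6 CPM or more in every RNA library, whereas Kit was at 0 and the B-lineage genes Ebf1, Pax5, Rag1, Rag2, Vpreb1 and Igll1 were at most 0.301 CPM. Of the B-cell receptor genes, Cd79b was at 3.345 to 9.914 CPM in every RNA library and Cd79a at up to 9.814.

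Of the members, 49 passed the filter on low counts in RNA, 50 in footprints and 49 in the joint fit. A member is called changed when its p-value from edgeR's quasi-likelihood test, adjusted over all genes by the Benjamini-Hochberg method, is under 0.05, and the share of all tested genes called in the same comparison is given as background. Values are CPM scaled by trimmed means (TMM), errors are standard deviations (SD, n = 3 clones), and fitted changes are on the log2 scale with their standard error (SE). All 7 mutant genotypes were compared with the same 3 WT clones, so their results are not independent of each other. Clones beyond every WT clone are given with the share of all genes where it was taken, and otherwise only describe the values. Of the 49 members tested in RNA, 40 were called at least once at some level, and 9 never were (Ddx1, Ddx11, Ddx20, Ddx28, Ddx39b, Ddx52, Ddx59, Dhx16 and Dhx30).

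At the RNA level most calls fell in the Rps15 mutants. In P131S 23 of 49 members were called higher and 8 lower, against 47% of all genes (23.7% higher and 23.4% lower). In H137Y 19 were higher and 6 lower, against 41% of all genes (21% higher and 20% lower). The members' median log2 change was 0.18 in P131S and 0.05 in H137Y, beside -0.01 and 0.01 over all genes. Without clone 20 of P131S the 23 higher members became 12. In Rpl10 R98S 12 members were called, 9 higher and 3 lower, against 12.9% of all genes (6.82% higher and 6.03% lower), and 3 higher without WT clone 3. The loss-of-function genotypes gave few calls. Rpl11+/- had 4 higher and 3 lower against a background of 11.8% (0 higher without clone 22), Rpl22+/- 0 higher and 2 lower against 3.9%, and Rpl22-/- 0 higher and 3 lower against 5.27% (1 lower without clone 30). In Rpl5+/- edgeR called 0 members against 1.04% of all genes, with 7 at an unadjusted p under 0.05, 2 called by DESeq2 and 0 by limma voom. Between Rpl22-/- and Rpl22+/- edgeR called 0 members and 0.0078% of all genes, with 2 at an unadjusted p under 0.05 and 0 called by DESeq2 or limma voom.

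Some markers of other cell types, not the same ones in both, were higher in RNA of the Rps15 mutants as well. The summed level of 6 myeloid markers was 1.77 to 7.99 CPM in WT, 6.89 to 58.9 in P131S and 24.7 to 90.9 in H137Y. Of the 4 tested, edgeR called 4 higher in H137Y (median log2 change 2.964) and 2 in P131S (median 1.737), Itgam and Lyz2 in both, while Cd14 was at 0 in WT and P131S. The 3 erythroid markers summed to 19.3 to 24 CPM in WT, 14.2 to 29.2 in P131S and 48.4 to 82.3 in H137Y. Of the 2 tested, both were higher in H137Y, and Klf1 was lower in P131S. The 4 T cell markers summed to at most 0.0686 CPM in WT, 0 to 12.9 in P131S and 0 in H137Y, with Cd3g higher in P131S and Cd3e, Cd4 and Cd8a at 0 in all 3 genotypes. The 2 stromal or epithelial markers summed to at most 0.213 CPM in WT, 0 to 6.09 in P131S and 0.355 to 8.71 in H137Y, with Col1a1 higher in both mutants and in Rpl11+/- and Epcam at 0 in WT and both mutants. In Rpl5+/- the myeloid markers summed to 7.45 to 20.4 CPM and the erythroid markers to 25.7 to 57.1, with none of them called. The part of these markers in the helicase results was not tested.

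At the footprint level calls were found only in the Rps15 mutants under edgeR. In P131S 20 of 50 members were higher and 4 lower, against 16.7% of all genes called (8.42% higher and 8.28% lower). In H137Y 11 were higher and 3 lower, against 11.7% (5.22% higher and 6.44% lower), and 6 higher without WT clone 3. The members' median was 0.26 in P131S and 0.21 in H137Y, beside -0.04 and 0 over all genes. For the other genotypes edgeR called 0 members. The share of all genes called was 0.0123% in Rpl5+/-, 0.074% in Rpl11+/-, 0.253% in Rpl22+/-, 0.105% in Rpl22-/-, 1.62% in R98S and 0.00617% between Rpl22-/- and Rpl22+/-. At an unadjusted p under 0.05 the same comparisons had 5, 11, 9, 6, 6 and 6 members. DESeq2 called 4 members in R98S (Ddx19a, Ddx49 and Ddx51 higher, Ddx50 lower) and Ddx5 in Rpl22-/-, and limma voom called Ddx49, Ddx50 and Ddx5 in these comparisons. In the other comparisons of this group both called 0.

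Translational efficiency gave 7 calls in all. These were Ddx6 in Rpl22-/- (1 of 49 members, against 0.0121% of all genes), Ddx6, Ddx50, Dhx32 and Dhx58 in P131S (4 of 49, against 3.14%), and Dhx32 and Ddx42 in H137Y (2 of 49, against 2.76%). With edgeR 0 members were called in the other comparisons, where the share of all genes was 0% in Rpl5+/-, Rpl11+/- and Rpl22-/- against Rpl22+/-, 0.00604% in Rpl22+/-, 0.217% in R98S and 0.682% in P131S against H137Y. At an unadjusted p under 0.05 these 6 comparisons had 2, 3, 3, 3, 7 and 9 members, in the order named. DESeq2 called Ddx6 in Rpl11+/- and Rpl22+/- and Ddx55 and Dhx58 between P131S and H137Y, limma voom called Ddx6 in Rpl22+/- and Dhx58 between P131S and H137Y, and elsewhere among the 6 both called 0. With the clone as a block, Ddx39a was also lower in R98S (log2 change -0.54, edgeR adjusted p 0.0201) and Ddx58 higher in P131S (0.64, edgeR adjusted p 0.0351).

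**Figure D1:**
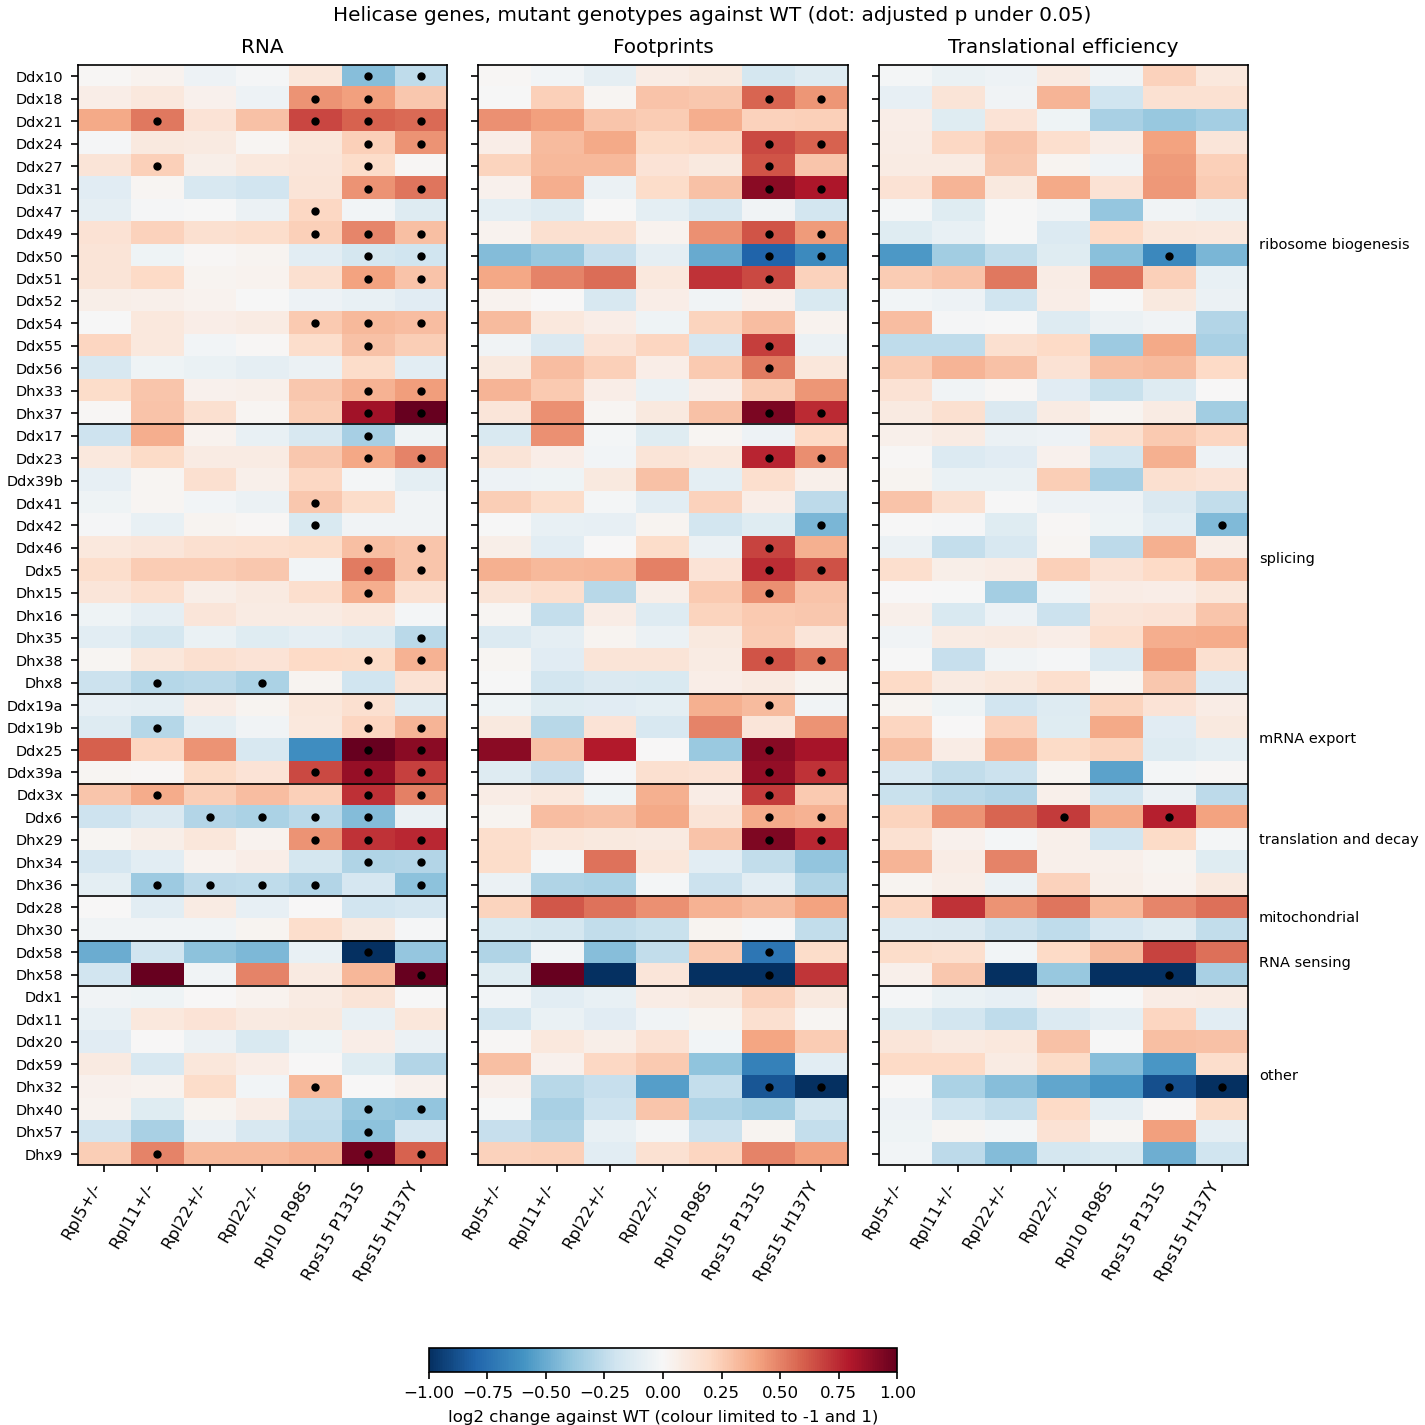
Fitted log2 change of each helicase gene (rows, grouped by role) in the 7 mutant genotypes against WT (columns) for RNA, footprints and translational efficiency, with colours limited to -1 and 1 and a dot where the edgeR adjusted p is under 0.05. Dots gather in the columns of Rps15 P131S and H137Y for RNA and footprints, while translational efficiency carries 7 dots in all, 2 of them for Ddx6.

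Among helicases of translation and decay, Ddx6 (ENSMUSG00000032097, GRCm38 chr9:44602983-44640731) had less RNA in most mutants than in WT but more footprints. WT clones 1, 2 and 3 had 241.5, 252.2 and 257.8 CPM of Ddx6 RNA. The Rps15 P131S clones 20, 24 and 63 had 177.1, 189.3 and 190.3 CPM. Those of Rpl22-/- (30, 649 and 776) had 189.7, 198.3 and 214.5 CPM. Over the 7 mutant genotypes, Ddx6 RNA was below every WT clone in 19 of 21 clones, the exceptions being clone 22 of Rpl11+/- and clone 6 of H137Y at 243.1 and 248.9 CPM. At least 19 clones lay below in 2 members, Ddx6 and Dhx36, and in 5.92% of all genes tested in RNA. The cut of 19 is the count of Ddx6 itself, set once it was known, so the share is a description. Genotype means were 217 ± 2.54 CPM in Rpl5+/-, 226 ± 15.7 in Rpl11+/-, 204 ± 4.69 in Rpl22+/-, 201 ± 12.6 in Rpl22-/-, 208 ± 2.30 in R98S, 186 ± 7.35 in P131S and 239 ± 10.9 in H137Y. The fall was called in Rpl22+/- (log2 change -0.295, SE 0.06, edgeR adjusted p 0.00502), Rpl22-/- (-0.32, 0.00221), R98S (-0.27, 0.0054) and P131S (-0.43, 7.15e-06). EdgeR did not call it in Rpl5+/- (-0.205, adjusted p 0.088), where DESeq2 and the fit of only the 2 genotypes did, or in Rpl11+/- (-0.148, adjusted p 0.103), and in H137Y the change was -0.07. No fit without 1 clone ended any of the 4 edgeR calls, and without clone 30 the Rpl22-/- change was -0.281 (edgeR adjusted p 0.0222).

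Ddx6 footprints moved the other way. WT clones 1, 2 and 3 had 181.5, 179.6 and 156.9 CPM, a mean of 173 ± 13.7. The P131S clones 20, 24 and 63 had 212.3, 211.0 and 245.3 CPM. In Rpl22-/- clones 30, 649 and 776 the values were 217.5, 226.6 and 229.0 CPM. Every clone of Rpl11+/-, Rpl22+/-, Rpl22-/-, P131S and H137Y lay above all WT clones, whereas Rpl5+/- (151.6 to 206.6 CPM) and R98S (175.6 to 196.2 CPM) overlapped WT. At least 18 of the 21 mutant clones lay above every WT clone in 7 of 50 members, Ddx6 among them, and in 1.62% of all genes tested in footprints. This cut of 18 is likewise the count of Ddx6 itself. The rise was called in P131S (log2 change 0.37, SE 0.11, edgeR adjusted p 0.021) and H137Y (0.35, 0.0366). Fits with 1 clone left out lost the call in 2 of 6 cases in P131S and in 5 of 6 in H137Y. Both calls were also lost without the filter on low counts and with only the 2 genotypes fitted.

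The log2 ratio of footprints to RNA set Ddx6 apart from the WT clones in nearly every mutant. It was -0.41, -0.49 and -0.72 in WT clones 1, 2 and 3, and 0.26, 0.16 and 0.37 in P131S clones 20, 24 and 63. In the Rpl22-/- clones 30, 649 and 776 it was 0.20, 0.19 and 0.10. The ratio exceeded that of every WT clone in 20 of 21 mutant clones, clone 68 of Rpl5+/- at -0.53 being the exception. Of 9940 genes with a value above 0 in all libraries, 0.483% had at least 20 of 21 mutant clones above every WT clone, and Ddx6 was the sole member among the 48 members with such values. The threshold of 20 is the count of Ddx6 itself, set once it was known, and is given as a description. Ddx56 came next, with 19 clones above. All 21 were set against the same 3 WT clones. Translational efficiency of Ddx6 was called in P131S (log2 change 0.78, SE 0.12, edgeR adjusted p 0.000134) and Rpl22-/- (0.70, SE 0.12, edgeR adjusted p 0.0174), and in the latter it had the smallest p-value of all genes tested. The change was 0.23 in Rpl5+/-, 0.45 in Rpl11+/-, 0.58 in Rpl22+/-, 0.38 in R98S and 0.40 in H137Y, with edgeR adjusted p of 1, 0.766, 0.107, 0.21 and 0.0588. With the clone as a block the adjusted p was 0.000483 in P131S and 0.0319 in Rpl22-/-. The Rpl22-/- call was lost in each of the 6 fits without 1 clone, with changes of 0.61 to 0.75 (0.685 without clone 30), and the P131S call in none. DESeq2 also called the rise in Rpl11+/-, Rpl22+/- and H137Y, and limma voom in Rpl22+/- and H137Y.

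**Figure D2:**
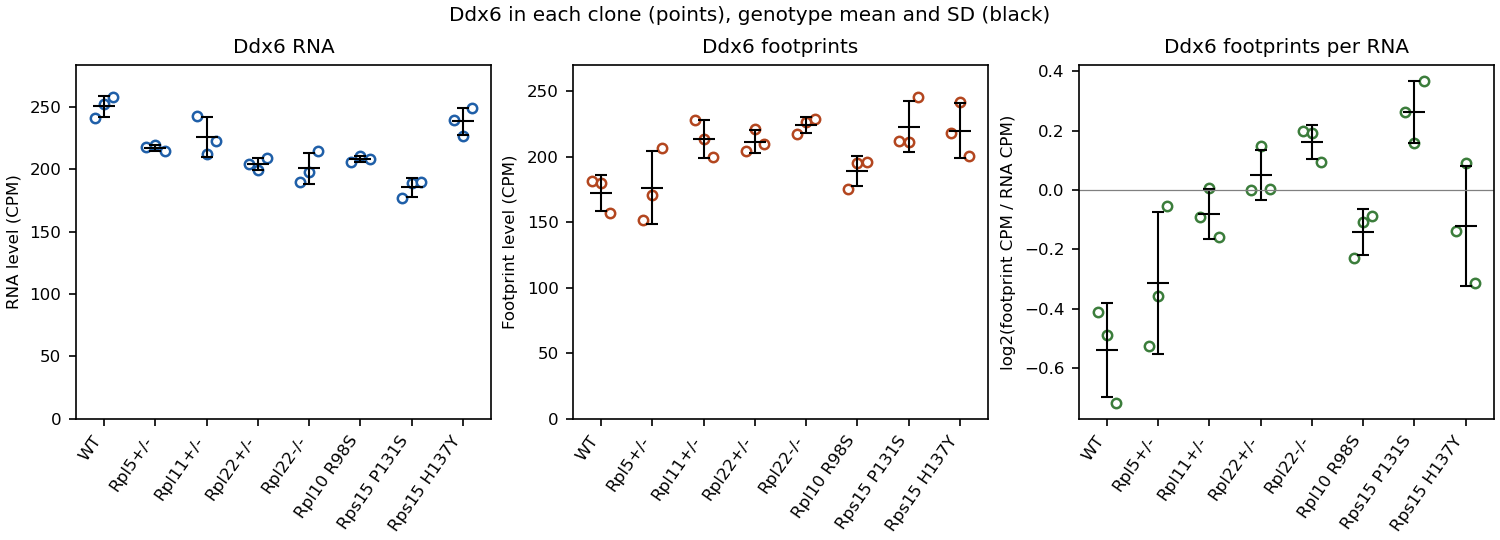
Ddx6 RNA (left, CPM), footprints (middle, CPM) and the log2 ratio of footprints to RNA (right) in each of the 3 clones of the 8 genotypes (open points), with genotype means and SD in black. Ratios of the WT clones lie between -0.72 and -0.41, and 20 of 21 mutant clones lie above them.

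Partners of Ddx6 in repression, deadenylation and decapping were listed by name, 31 genes in all, and each passed the filter. In P131S RNA 15 were higher and 9 lower (median 0.01, beside -0.01 over all genes, of which 23.7% were higher and 23.4% lower). All 7 subunits of the Lsm1 to Lsm7 ring, which binds the shortened tail of messenger RNA and activates decapping, were higher, from 0.31 for Lsm4 to 0.63 for Lsm6. Lower were Cnot4, the ubiquitin ligase of the CCR4-NOT complex (log2 change -0.996), Dcp1a, a decapping activator (-0.42), and the deadenylases Cnot6l (-0.40) and Cnot6 (-0.40). Fewer partners changed in the other genotypes. The counts were 2 higher and 9 lower in H137Y, where 21% of all genes were higher and 20% lower, and 1 and 8 in R98S, where 12.9% of all genes were called. They were 0 and 5 in Rpl11+/- (11.8% of all genes), 0 and 4 in both Rpl22+/- (3.9%) and Rpl22-/- (5.27%), and 0 and 1 in Rpl5+/- (1.04%). Without clone 30 the Rpl22-/- count was 0 and 3, namely Cnot4 (-0.826), Cnot6l (-0.47) and Dcp1a (-0.42). Lsm5 was lower in H137Y (-0.58). Cnot4 RNA was called lower in all 7 genotypes, also in Rpl5+/- (-0.445), Rpl11+/- (-0.83), Rpl22+/- (-0.825), Rpl22-/- (-0.87), R98S (-0.54) and H137Y (-0.71). Dcp1a was lower in each of these but Rpl5+/-, by -0.38 in R98S to -0.50 in H137Y. In footprints 6 partners were higher and 3 lower in P131S, beside 8.42% and 8.28% of all genes. Of the Lsm ring only Lsm2, Lsm4 and Lsm5 were called in P131S footprints. Cnot7 was lower there (-0.73) although its RNA was higher (0.24). In H137Y footprints 2 partners were higher and 1 lower, beside 5.22% and 6.44%. Footprints of Cnot4 and Dcp1a were not called in any genotype. In translational efficiency 3 partners were called in P131S, Lsm1 (-1.15), Cnot7 (-0.99) and Cnot3 (-0.46), all lower, against 3.14% of all genes.

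Ddx3x, which promotes translation of messenger RNAs with structured leaders, rose in RNA in both Rps15 mutants. WT clones had 367.0, 383.3 and 370.0 CPM. The P131S clones 20, 24 and 63 had 776.7, 503.7 and 582.6 CPM, and the H137Y clones 2, 6 and 16 had 521.4, 549.0 and 518.4 CPM. All 6 Rps15 clones lay above all WT clones, as did those of every other mutant genotype, 21 of 21 in all. Ddx46, Ddx49 and Dhx9 shared this, 4 of 49 members, beside 1.5% of all genes tested. The changes were 0.73 in P131S (SE 0.10, edgeR adjusted p 9.15e-06), 0.50 in H137Y (SE 0.10, 0.000502) and 0.37 in Rpl11+/- (SE 0.10, 0.0227), the last of which was lost in 5 of 6 fits without 1 clone. Ddx3x footprints were called in P131S alone (0.70, edgeR adjusted p 0.00385). Ddx3y, its Y-linked counterpart, had 0 counts in every RNA library and at most 17.01 in footprints, with fractional values in 22 libraries, so these footprints cannot be told apart from reads of Ddx3x.

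Dhx29, which helps the small ribosomal subunit to scan structured leaders, was higher in RNA in R98S (37.45 ± 2.48 CPM), P131S (45.1 ± 5.83) and H137Y (46.2 ± 6.77) than in WT (27.4 ± 0.563). The log2 changes were 0.45, 0.72 and 0.76, with edgeR adjusted p of 0.00631, 1.07e-05 and 7.64e-06, and no fit without 1 clone ended the R98S or H137Y call. Footprints rose by 0.93 in P131S and 0.76 in H137Y. Dhx36, which unwinds G-quadruplexes, was called lower in RNA in 5 genotypes and lay below every WT clone in 21 of 21 mutant clones, alone among the 49 members and beside 2.09% of all genes. WT clones had 96.8, 99.3 and 99.7 CPM of it and H137Y clones 72.8, 78.6 and 70.6, and the largest falls were in H137Y (-0.41, edgeR adjusted p 9.04e-05) and Rpl11+/- (-0.365, 0.00261). In Rpl22+/- (-0.26, 0.0355) and Rpl22-/- (-0.26, 0.0352) the call was lost in all 6 fits without 1 clone (-0.28, edgeR adjusted p 0.0689 without clone 30). No change of Dhx36 footprints was called. Dhx34, a factor of nonsense-mediated decay, fell in RNA from 20.1 ± 0.371 CPM in WT to 16.35 ± 2.02 in P131S and 16.4 ± 1.23 in H137Y (edgeR adjusted p 0.0168 and 0.02), and 3 of 6 fits without 1 clone lost the H137Y call.

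The 16 ribosome biogenesis helicases work in the nucleolus on precursors of the ribosomal RNAs, and most of those called in the Rps15 mutants were higher. In P131S RNA 11 were higher and 2 lower, which is 68.8% and 12.5% of the list beside 23.7% and 23.4% of all genes, with a median log2 change of 0.31. In H137Y RNA 8 were higher and 2 lower (median 0.28), beside 21% and 20% of all genes. In R98S RNA 5 were higher and 0 lower (median 0.17, and 1 without WT clone 3), beside 6.82% and 6.03%. In Rpl11+/- RNA 2 were higher and 0 lower (median 0.10, and 0 without clone 22), beside 11.8% of all genes called. In P131S footprints 9 were higher and 1 lower (median 0.55), beside 8.42% and 8.28%. In H137Y footprints 5 were higher and 1 lower (median 0.23, and 2 higher without WT clone 3), beside 5.22% and 6.44%. In RNA clone 20 of P131S stood above clones 24 and 63 for 15 of the 16 genes. Without it 4 were called higher in P131S RNA in place of 11, and the median was 0.19. Ddx52 was called at no level.

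Dhx37, which releases the U3 small nucleolar RNA from the assembling small subunit, showed the largest RNA rise of the list in both Rps15 mutants. In RNA the WT clones 1, 2 and 3 had 26.5, 28.4 and 25.4 CPM. P131S clones 20, 24 and 63 had 56.0, 43.9 and 43.9 CPM, and H137Y clones 2, 6 and 16 had 52.4, 66.0 and 50.3 CPM. No Rps15 mutant clone overlapped WT, and the share of all genes with such a separation was not taken. The log2 changes were 0.84 (SE 0.15, edgeR adjusted p 9.45e-05) and 1.07 (SE 0.15, 9.54e-06). Footprints rose from 30.8 ± 0.867 CPM in WT to 59.3 ± 14.45 in P131S and 51.8 ± 5.34 in H137Y (0.94 and 0.75, edgeR adjusted p 0.00153 and 0.0119). In Rpl11+/- clone 22 stood at 41.6 CPM of RNA while clone 414 had 23.9, and no change was called.

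Ddx21, a nucleolar helicase that binds ribosomal RNA precursors and small nucleolar RNAs, and its neighbour and close relative Ddx50 lie next to each other on chromosome 10 (GRCm38 chr10:62580247-62602298 and chr10:62615792-62658764). In RNA of the Rps15 mutants Ddx21 rose and Ddx50 fell. Ddx21 RNA was 248.5 to 278.6 CPM in WT clones and 337.2 to 504.4 in P131S, 388.1 to 396.9 in H137Y, 391.9 to 456.2 in R98S and 321.9 to 440.4 in Rpl11+/-. Each of these 12 clones exceeded every WT clone. So did those of Rpl5+/- (339.2 to 352.3 CPM) and Rpl22-/- (304.4 to 339.7), neither of which edgeR called. In all 20 of 21 mutant clones lay above WT, a count for which the share of all genes was not taken. The log2 changes were 0.59 in P131S (edgeR adjusted p 3e-04), 0.565 in H137Y (0.000573), 0.67 in R98S (0.000868) and 0.525 in Rpl11+/- (0.00616). Ddx21 footprints changed by 0.23 in P131S and 0.24 in H137Y, neither of which was called (edgeR adjusted p 0.317 and 0.333). Ddx21 was among the 7 members with footprints above every WT clone in at least 18 of 21 mutant clones, beside 1.62% of all genes.

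Ddx50 fell, and more in footprints than in RNA. Its RNA went from 115 ± 1.78 CPM in WT to 101 ± 6.89 in P131S and 100.2 ± 3.16 in H137Y. Footprints in WT clones 1, 2 and 3 were 48.5, 40.2 and 43.6 CPM. In P131S clones 20, 24 and 63 they were 22.4, 26.6 and 27.1 CPM, and in H137Y clones 2, 6 and 16 they were 32.7, 24.4 and 27.9 CPM. All 6 were below every WT clone. The footprint changes were -0.80 (SE 0.14, edgeR adjusted p 0.000656) and -0.64 (SE 0.14, 0.00561), and no fit without 1 clone lost them. Footprints also lay below every WT clone in all clones of R98S (29.7 to 33.1 CPM), Rpl11+/- (30.5 to 37.0) and Rpl22+/- (35.0 to 39.0). So did clones 68 and 76 of Rpl5+/- (27.75 and 29.66) and clone 649 of Rpl22-/- (38.67). EdgeR called no change in these genotypes. Translational efficiency of Ddx50 fell by 0.64 in P131S (SE 0.15, edgeR adjusted p 0.00814), lost in 3 of 6 fits without 1 clone, and the change in H137Y was -0.46 (0.0833). The ratio of footprints to RNA was below that of every WT clone in 19 of 21 mutant clones, a count for which the share of all genes was not taken. Both genes carry fractional counts in about as many libraries (29 for Ddx21 and 31 for Ddx50). Fractions mark reads shared with other loci, and whether the 2 genes share them was not tested.

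**Figure D3:**
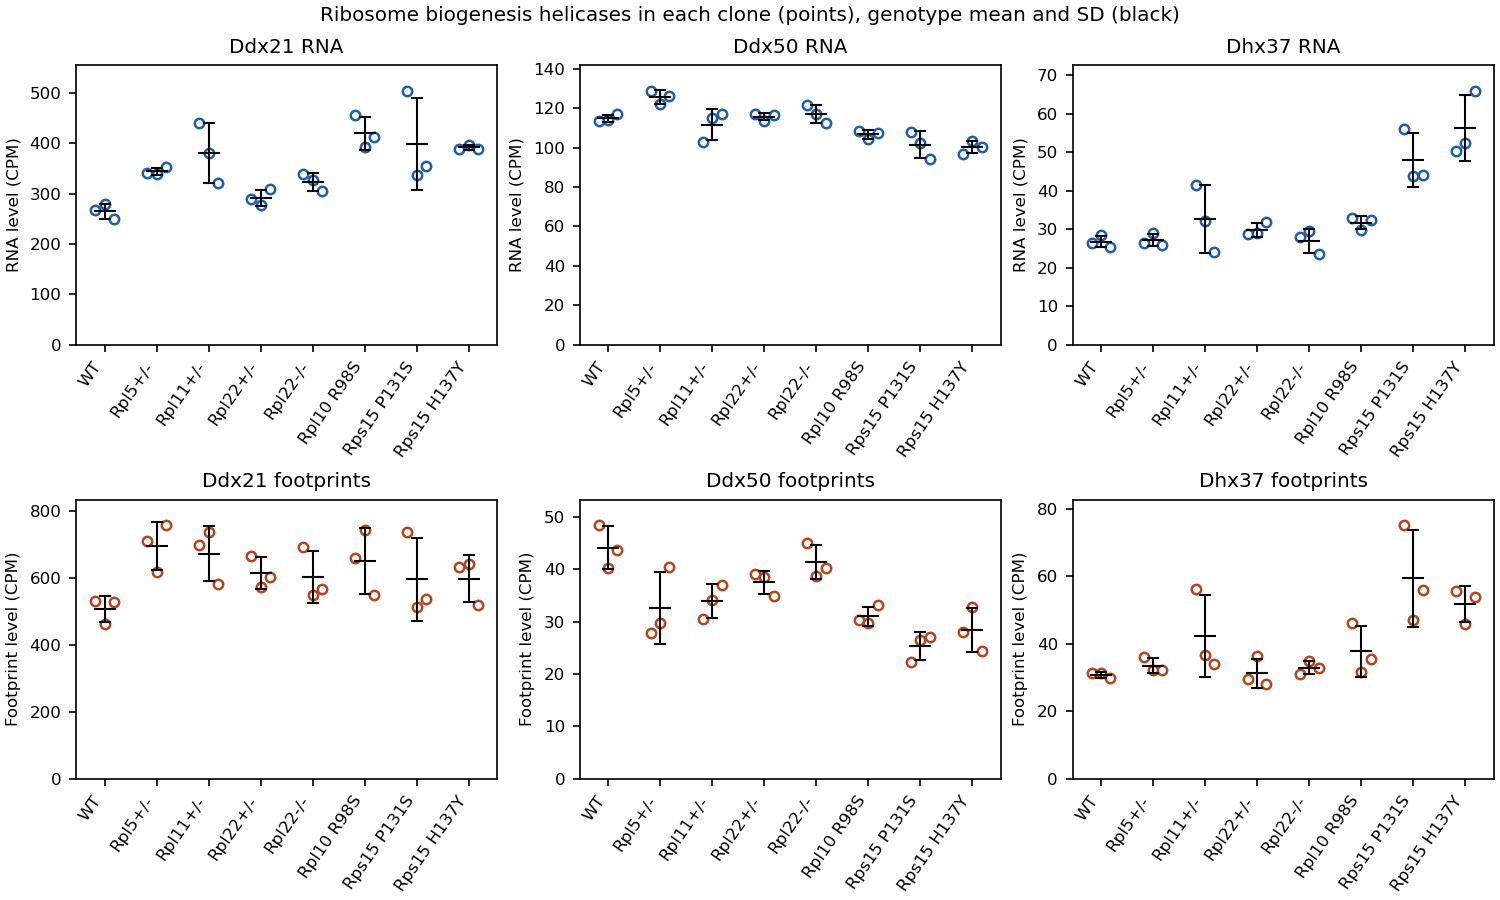
RNA (top, CPM) and footprints (bottom, CPM) of Ddx21, Ddx50 and Dhx37 in each clone of the 8 genotypes (open points), with genotype means and SD in black. Ddx50 footprints are 22.4 to 32.7 CPM in the 6 Rps15 mutant clones and 40.2 to 48.5 CPM in WT, while Dhx37 lies above WT in the same clones. Ddx50 footprints of R98S (29.7 to 33.1 CPM), Rpl11+/- and Rpl22+/- also lie below WT.

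Several other helicases of this list gained footprints in the Rps15 mutants. Ddx31 footprints were 19.4 to 23.5 CPM in WT, 30.4 to 53.5 in P131S and 36.2 to 39.7 in H137Y (log2 change 0.91 and 0.81, edgeR adjusted p 0.00354 and 0.0114). Ddx18, Ddx24 and Ddx49 were called higher in footprints of both, by 0.58, 0.66 and 0.63 in P131S and 0.44, 0.59 and 0.42 in H137Y. Ddx55, a factor of the large subunit, separated the 2 mutations. Its footprints were 26.8, 26.8 and 23.4 CPM in P131S clones 20, 24 and 63, and 14.8, 14.9 and 15.9 CPM in H137Y clones 2, 6 and 16, beside 15.5, 16.7 and 15.5 in WT. The difference between the mutants was 0.755 (SE 0.17, edgeR adjusted p 0.0134), a call lost without P131S clone 20. In RNA the same difference was 0.05 and was not called. Ddx10, required for the small subunit, fell in RNA in P131S (-0.42, edgeR adjusted p 5.76e-05) and H137Y (-0.25, 0.00676), from 117 ± 0.316 CPM in WT to 86.8 ± 9.04 and 97.9 ± 3.05, with footprints not called.

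Because many members of this list moved together in the Rps15 mutants, their promoters were searched for the E-box CACGTG, a binding motif of the Myc family, and for CGCATGCG, the core of the NRF1 motif, on both strands of the 250 bases before each start used by the RefSeq promoter table (GRCm38.p6). Both motifs read the same on either strand and neither contains the other, and they were chosen after the values were seen. Promoter sequences were held for 47 of the 53 members, including all 16 of this list. CACGTG was found in 1 of the 16 genes (6.25%) and in 6.86% of all 27025 genes, and CGCATGCG in 1 of the 16 (6.25%) and 1.75% of all genes. The matches are shown, 5′ to 3′ on the strand of the gene, with the motif in capitals. The Dhx33 stretch lies at chr11:71004451-71004478 and that of Dhx37 at chr5:125434106-125434135, both on the minus strand, and their motifs begin 35 and 76 bases before that start. Both stretches lie inside the outermost annotated extent of their gene (chr11:70984091-71004533 and chr5:125413747-125434139).
Dhx33: cagcacgcctgCACGTGgcgagaaaggg
Dhx37: cgcggctcttgCGCATGCGcaacccggaag
Dhx37 is the member of the list with the largest RNA rise, and Dhx33 RNA rose by 0.35 in P131S and 0.42 in H137Y (edgeR adjusted p 0.00699 and 0.00228). Over the 47 members the shares were 12.8% for CACGTG and 6.38% for CGCATGCG. Outside this list CACGTG was found in Ddx4, Ddx5, Ddx42, Dhx35 and Dhx40, and CGCATGCG in Ddx19b and Dhx34. Of these, Ddx5 and Ddx19b RNA rose in both Rps15 mutants, while Dhx34 and Dhx40 RNA fell in both. The printed letters describe the sequence and do not show that a factor binds there. A link between the motifs and the changes was not tested.

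The 12 splicing helicases remodel the spliceosome. In P131S RNA 5 were higher and 1 lower (median 0.14), beside 23.7% and 23.4% of all genes, and in H137Y 4 and 1 (median 0.06), beside 21% and 20%. Footprints of 5 were higher and 0 lower in P131S (median 0.26), beside 8.42% and 8.28%, and 3 and 1 in H137Y, beside 5.22% and 6.44%. Ddx5, which also coactivates transcription, rose most in P131S RNA. Its RNA was 671 ± 8.67 CPM in WT, 961 ± 48.5 in P131S and 815 ± 157 in H137Y (0.52 and 0.28, edgeR adjusted p 7.4e-05 and 0.0143). The H137Y clones were split, clones 2 and 16 at 908.5 and 902.4 CPM and clone 6 at 634, below every WT clone (664.8 to 681.2). Ddx5 footprints were 902.8 to 970.7 CPM in WT clones, 1431 to 1620 in P131S and 1275 to 1612 in H137Y (0.74 and 0.63, edgeR adjusted p 0.000195 and 0.000861). Ddx23, Ddx46 and Dhx38, which act at successive steps of spliceosome assembly and catalysis, were called higher in P131S footprints by 0.76, 0.68 and 0.63. Ddx5 carried fractional counts in all 48 libraries, which marks reads shared with other loci.

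Ddx17, a paralogue of Ddx5, had 353.1, 295.0 and 207.2 CPM of RNA in Rpl11+/- clones 22, 406 and 414, beside 216.0 to 229.8 in WT. It was lower in P131S RNA (-0.335, edgeR adjusted p 0.0288). Dhx8, which releases spliced messenger RNA, was lower in RNA in Rpl11+/- (-0.28, edgeR adjusted p 0.0351) and Rpl22-/- (-0.32, 0.031), calls that 5 of 6 fits without 1 clone lost (-0.28, edgeR adjusted p 0.155 in Rpl22-/- without clone 30). Ddx42, an ATPase associated with the U2 snRNP, had 82.7, 78.5 and 64.1 CPM of footprints in H137Y clones 16, 2 and 6, and 108.9, 107.0 and 93.2 in WT. Its RNA did not follow, with -0.03. The footprint change was -0.46 (SE 0.12, edgeR adjusted p 0.014), lost in 3 of 6 fits without 1 clone, and that in translational efficiency -0.44 (SE 0.12, 0.0404), which all 6 fits without 1 clone lost.

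All 4 export helicases rose in P131S RNA (median 0.54) and 3 of 4 in H137Y (median 0.51), and 3 and 1 rose in footprints, beside the shares of all genes given for splicing helicases. Without P131S clone 20 the RNA count was 2, and without WT clone 3 the P131S footprint count was 1. Ddx39a, which loads export factors on messenger RNA, was also higher in R98S. Its RNA was 150.6, 160.6 and 143.6 CPM in WT, 320.1, 255.6 and 257.6 in P131S clones 20, 24 and 63, and 248.0, 225.4 and 244.5 in R98S clones A29, A30 and A34. H137Y clones 2, 6 and 16 had 262.2, 223.7 and 245.4 CPM, so that no clone of these genotypes overlapped WT. The share of all genes separated in this way was not taken. The log2 changes were 0.87 in P131S (edgeR adjusted p 1.32e-07), 0.66 in R98S (3.37e-05) and 0.685 in H137Y (2.45e-06), and no fit without 1 clone ended the first 2. Ddx39a footprints rose from 492 ± 60.8 CPM in WT to 904 ± 114 in P131S and 811 ± 128 in H137Y. In R98S they were 543 ± 75.2 CPM, and no change was called. The close paralogue Ddx39b, counted here with splicing, was called at no level.

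Ddx25, best known from male germ cells, was low in every library, at 6.33 to 7.46 CPM of RNA in WT, and rose to 12.6 to 16.1 in P131S and 11.95 to 15.04 in H137Y (log2 change 1.015 and 0.90, edgeR adjusted p 0.00344 and 0.00885). The neighbours Ddx19a and Ddx19b, which act at the nuclear pore, carried fractional counts in all 48 libraries, so how their shared reads were divided bears on both. Ddx19b RNA fell in Rpl11+/- from 44.2 ± 0.342 CPM in WT to 36.3 ± 0.204 (-0.28, edgeR adjusted p 0.00954), and no fit without 1 clone ended this call.

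Of the RNA sensing helicases, Ddx58, known as RIG-I, a cytoplasmic sensor of viral RNA, was low in P131S and not in H137Y. Its RNA was 14.9, 15.8 and 26.4 CPM in WT clones 1, 2 and 3. In P131S clones 20, 24 and 63 it was 4.48, 8.54 and 8.35 CPM, and in H137Y clones 2, 6 and 16 it was 14.46, 14.03 and 15.17. The P131S clones held the 3 lowest values. Ddx58 RNA changed by -1.42 in P131S (SE 0.21, edgeR adjusted p 2.38e-05) and -0.38 in H137Y (0.142). Between the mutants the difference was -1.035 in RNA (SE 0.21, edgeR adjusted p 0.00142) and -0.91 in footprints (SE 0.20, 0.0142), the latter lost in 2 of 6 fits without 1 clone. Ddx58 footprints were 15.5, 31.2 and 28.0 CPM in P131S and 34.5, 38.8 and 50.2 in WT (-0.72, edgeR adjusted p 0.0183), a call lost in 2 of 6 fits without 1 clone.

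Dhx58, also called LGP2, modulates sensing by RIG-I and was near the limit of detection. Its footprints summed to 11 counts over the 3 P131S libraries, with 0 in clones 20 and 24, against 230 in WT and 260 in H137Y. A count of 0 allows up to 0.0618 and 0.0665 CPM in these 2 libraries, counting error only, beside 1.04 to 1.94 CPM in WT. Clone 60 of Rpl22+/- also had 0, in the library with the fewest counts. In the other genotypes footprints summed to 56 counts in R98S, 73 in Rpl22+/-, 188 in Rpl5+/-, 285 in Rpl22-/- and 514 in Rpl11+/-. The R98S clones, at 0.117 to 0.535 CPM, also lay below every WT clone, and those of Rpl11+/-, at 3.03 to 4.04 CPM, lay above. EdgeR called neither change. RNA of Dhx58 was 0.721 to 1.67 CPM in P131S and overlapped WT at 0.446 to 1.47. In H137Y it was called higher, at 1.14 to 2.43 CPM. The edgeR adjusted p of the P131S footprints was 0.0177 against WT and 0.0234 against H137Y, and 3 of 6 fits without 1 clone lost each call. Ddx60 did not pass the filter at any level, with at most 2 counts.

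**Figure D4:**
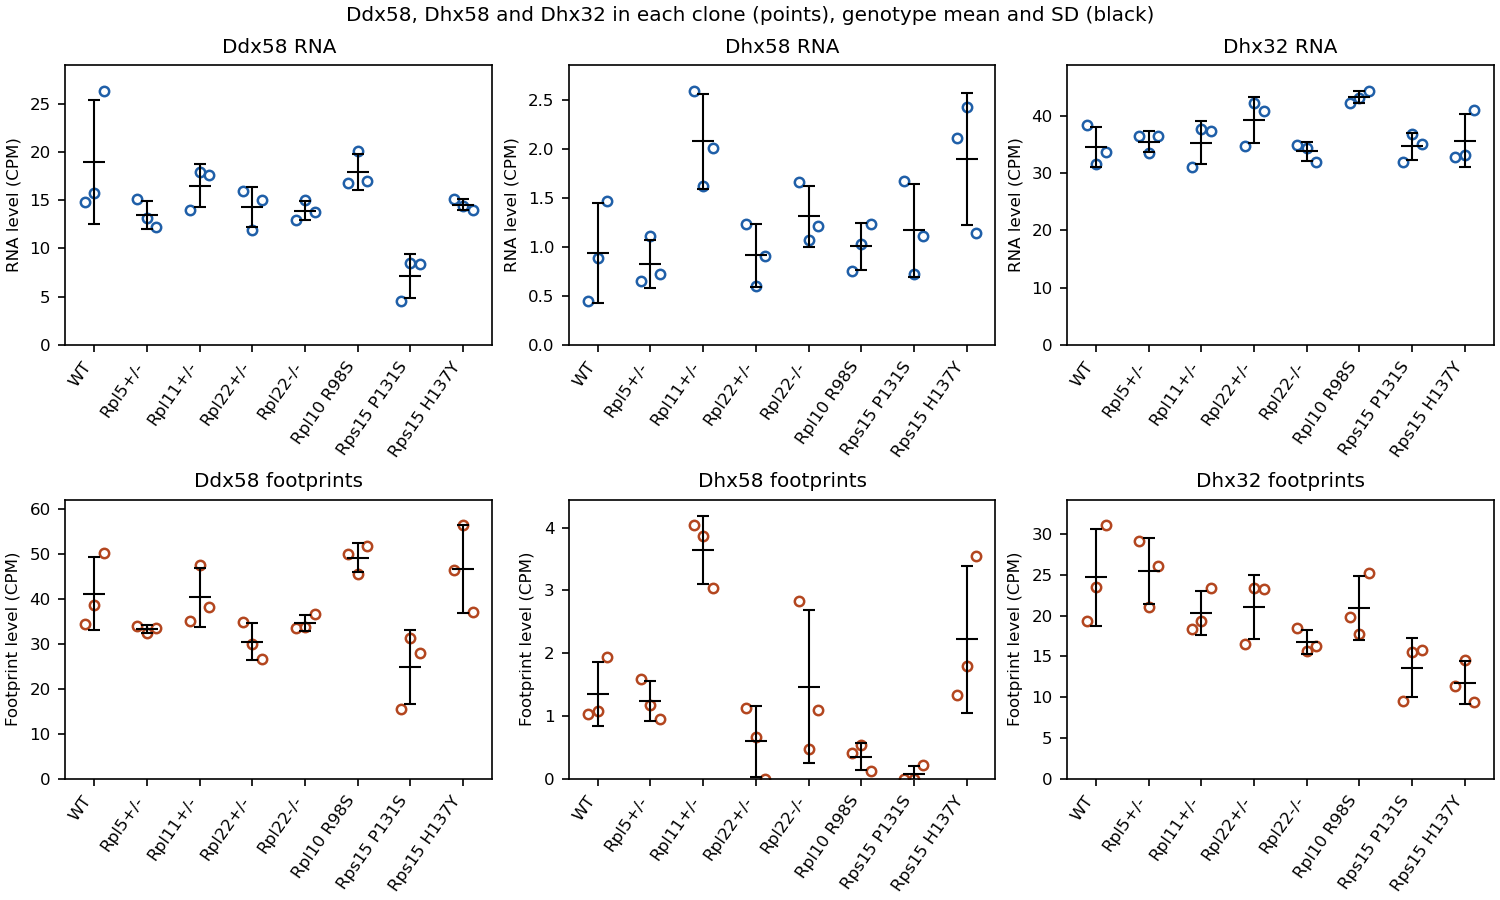
RNA (top, CPM) and footprints (bottom, CPM) of Ddx58, Dhx58 and Dhx32 in each clone of the 8 genotypes (open points), with genotype means and SD in black. Ddx58 RNA is 4.48 to 8.54 CPM in P131S and 14.03 to 15.17 in H137Y, Dhx58 footprints are at or near 0 in P131S, and Dhx32 footprints are 9.37 to 15.8 CPM in the Rps15 mutants, below WT, while its RNA overlaps WT.

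Among the remaining members, Dhx32 lost footprints without losing RNA. WT clones 1, 2 and 3 had 19.4, 23.5 and 31.1 CPM of footprints. P131S clones 20, 24 and 63 had 9.48, 15.6 and 15.8 CPM, and H137Y clones 2, 6 and 16 had 14.6, 9.37 and 11.3. Each of the 6 lay below all WT clones, as did the Rpl22-/- clones at 15.66 to 18.47 CPM and 13 of the 21 mutant clones in all. The share of all genes with such a count was not taken. Dhx32 RNA was 34.6 ± 3.56 CPM in WT, 34.7 ± 2.44 in P131S and 35.8 ± 4.68 in H137Y. Translational efficiency changed by -0.88 in P131S (SE 0.25, edgeR adjusted p 0.0398) and -1.13 in H137Y (SE 0.25, 0.00716), and fits without 1 clone lost these calls in 5 and 3 of 6 cases. Footprints of Dhx32 in P131S and H137Y did not differ by a called amount (0.21, SE 0.22, edgeR adjusted p 0.699).

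Dhx9, a helicase of the nucleus and cytoplasm that resolves RNA and DNA structures, was higher in RNA in P131S (432.0, 297.1 and 348.7 CPM in clones 20, 24 and 63) and H137Y (286.9, 246.0 and 301.5 in clones 2, 6 and 16) than in WT (180.8 to 192.2). The log2 changes were 0.96 (SE 0.14, edgeR adjusted p 1.45e-05) and 0.59 (SE 0.14, 0.0017). Footprints of Dhx9 changed by 0.49 and 0.41, neither of which was called (edgeR adjusted p 0.0617 and 0.146). In Rpl11+/- Dhx9 RNA was 308.7, 274.6 and 197.0 CPM in clones 22, 406 and 414. That rise (0.495, edgeR adjusted p 0.023) was lost in 5 of 6 fits without 1 clone. Dhx40 fell in RNA in both Rps15 mutants, from 33.0 ± 0.505 CPM to 25.4 ± 3.595 and 25.2 ± 2.85 (-0.38 and -0.39). The mitochondrial helicases Ddx28 and Dhx30 were called at no level. The germ line helicases Ddx4 and Ddx43 had at most 5 counts in any library and were not tested.

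RNA and footprint changes were compared within each Rps15 mutant. In P131S 18 of 49 members were called higher at both levels, beside 8.06% of the 12074 genes tested at both, and 2 lower at both (Ddx50 and Ddx58), beside 7.44%. Of the members Ddx6 alone was called in opposite directions (0.522% of all genes), 10 were called in RNA only (32.6%) and 3 in footprints only (Ddx56, Dhx32 and Dhx58, beside 5.62%). In H137Y 9 were higher at both levels (4.42% of all genes), 1 lower at both (Ddx50, 5.81%) and 0 in opposite directions (0.381%). In that mutant 15 were called in RNA only (31.3%) and 4 in footprints only (Ddx6, Ddx18, Ddx42 and Dhx32, beside 4.43%). A call at a single level does not show that the levels differ, and the test of that difference is translational efficiency, with its 6 calls in these mutants.

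**Figure D5:**
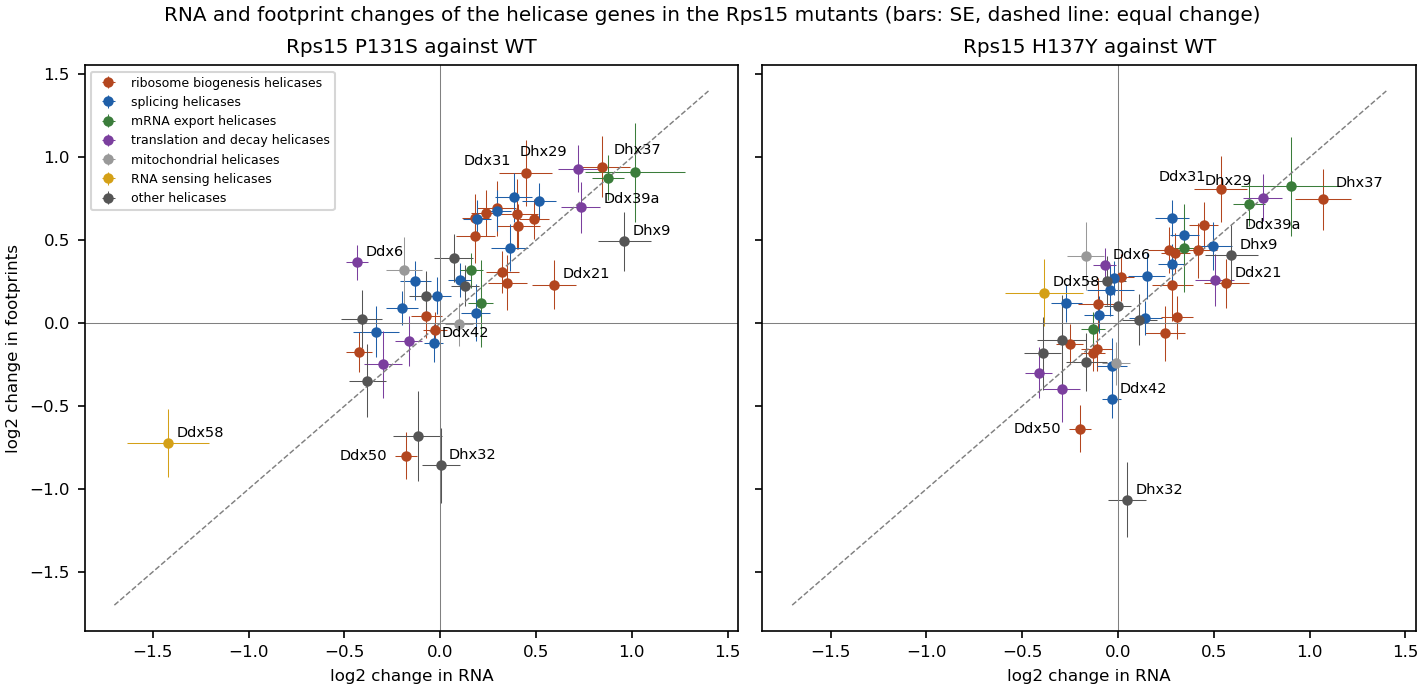
Fitted log2 change in RNA (horizontal) and in footprints (vertical) of each helicase gene tested in both, in Rps15 P131S (left) and H137Y (right) against WT, coloured by role, with SE bars and a dashed line of equal change. Dhx58 lies outside the plotted range in P131S and is left out of both panels. Ddx6 lies above the line and Ddx50 and Dhx32 below it in both panels.

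The direct comparison of the 2 Rps15 mutants gave few calls among members, which does not show that the others changed alike. In RNA 4 were higher in P131S than in H137Y and 4 lower, against 25.2% of all genes. In footprints 1 was higher and 2 lower, against 4.17%. Higher in P131S RNA were Ddx19a (0.295), Ddx56 (0.29), Dhx36 (0.25) and Ddx41 (0.22), and lower were Ddx58 (-1.035), Ddx6 (-0.36), Dhx8 (-0.34) and Ddx24 (-0.21). Of the 6 fits without 1 clone, 4 lost Ddx41, 4 Ddx24, 3 Ddx56 (0.102 at the lowest) and 2 Dhx36, while Ddx19a, Ddx58, Ddx6 and Dhx8 were called in each. A fit of only these 2 genotypes called 0 members. In footprints Ddx55 was higher and Ddx58 and Dhx58 lower, as described for these genes. Footprints of Ddx6 differed by 0.02 and its translational efficiency by 0.38, neither of which was called.

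In WT cells the log2 ratio of footprints to RNA had a median of 0.30 over 49 members and -0.29 over the 11504 genes tested in both assays, and 36 of the 49 lay above the latter. Ddx39a (1.69) and Ddx39b (1.60) had the highest ratios, at percentiles of 95.7 and 95.3 among all genes. Ddx19b (-1.87) and Ddx50 (-1.39) had the lowest, while Ddx6 at -0.54 was at a percentile of 42.4. A ratio of this kind also depends on the share of a transcript that is coding, so the order of these genes is a description and not an order of translation.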

How the data were processed

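Poly(A)-selected RNA and ribosome footprints of 24 Ba/F3 clones, 3 in each of 8 genotypes, gave 48 libraries. The authors deposited 1 table of estimated counts per gene, not normalized. The submitters' processing notes name STAR 2.6.1d, Salmon 1.4.0 and DESeq2 1.30, without their roles. The estimated counts hold fractions where reads are shared between loci, and were rounded to whole numbers for the count tests.

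Genes were filtered with filterByExpr (minimum count 10, minimum total 15), scaled by TMM within each assay and fitted with robust edgeR 4.0.16 quasi-likelihood models in R 4.3.3, in 9 comparisons at 3 levels. Translational efficiency is the interaction of assay and genotype. P-values were adjusted over all genes tested by the Benjamini-Hochberg method with a threshold of 0.05. The SE is the absolute log2 change divided by the square root of F. A permutation test over 3 against 3 clones cannot go below 0.1. The RNA and translational efficiency fits were also run on simulated counts, with the same dispersion for every gene and with independent libraries. That run does not cover the pairing of assays within a clone or unequal spread between genotypes.

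Alternatives were DESeq2 1.42.0, limma 3.58.1 voom on unrounded values, no filter, a fit of only the 2 genotypes compared, each clone left out in turn (72 refits), and the clone as a block. Both assays came from the same lysate, and the deviations of the RNA and footprint libraries of a clone correlated at 0.197 to 0.669 in 24 of 24 clones over 9308 genes, so the clone numbers pair the libraries. No 2 libraries held identical values. In the RNA and footprint fits each clone counts as 1 replicate, and the clones are separate lines. Their p-values measure the spread between clones, estimated over all genotypes in the fit together. The main fit of translational efficiency treats the 2 libraries of a clone as independent, and only the fit with the clone as a block pairs them.

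Members, role lists and named genes were chosen with earlier results of these data known. Named were Ddx6 at every level, for each comparison and level up to 4 called members in each direction with the largest log2 change, members under the filter, and up to 3 called examples of each further list. Other members and partners named were chosen after their values were seen. A further part of the rule, the 5 members with the highest footprint CPM per kb of coding length, was not applied, because coding lengths were not used here.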

Additional observations from a re-analysis of the deposited data

Results flagged for a closer look

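Results in which the 2 Rps15 mutants differed were singled out, each by the direct edgeR comparison of P131S with H137Y (log2, P131S minus H137Y), with 3 clones in each. In RNA the difference was -1.035 for Ddx58, -0.363 for Ddx6, -0.343 for Dhx8 and -0.209 for Ddx24, all lower in P131S. It was 0.295 for Ddx19a, 0.29 for Ddx56, 0.249 for Dhx36 and 0.216 for Ddx41, all higher in P131S. In footprints the difference was 0.755 for Ddx55, -0.908 for Ddx58 and -4.845 for Dhx58. The Dhx58 value depends on the prior count, since 2 of the 3 P131S libraries held 0 counts. A fit of these 2 genotypes alone called 0 of these differences.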

How the results depend on the processing

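Numbers of helicase genes called depended on the setting as follows, with the value of the full fit in brackets; the cause was not tested. With only the 2 genotypes fitted, RNA calls were 27 in R98S (12), 8 in Rpl22+/- (2), 7 in Rpl22-/- (3), 8 in Rpl5+/- (0) and 0 between P131S and H137Y (8). Footprint calls were then 3 in R98S (0), 9 in H137Y (14) and 0 between P131S and H137Y (3), and efficiency calls 0 in H137Y (2) and 2 in P131S (4). In P131S footprints 15 members were then higher and 1 lower (20 and 4). Over all genes, RNA calls under this setting were 4216 of 11917 in R98S (1647 of 12814 in the full fit). They were 1248 in Rpl22+/- (500), 1436 in Rpl22-/- (675), 1868 in Rpl5+/- (133) and 378 between P131S and H137Y (3234). Footprint calls over all genes were 689 in R98S (263), 1415 in H137Y (1890) and 34 between P131S and H137Y (677). Among the members, DESeq2 gave 12 RNA calls in Rpl11+/- (7), 5 in Rpl22-/- and 2 in Rpl5+/-, 4 footprint calls in R98S and 1 in Rpl22-/-, and efficiency calls of 1 in Rpl11+/-, 1 in Rpl22+/- and 2 between P131S and H137Y. With limma voom there were 2 footprint calls in R98S and 1 in Rpl22-/-, and 1 efficiency call each in Rpl22+/- and between P131S and H137Y. Without the filter there was 1 RNA call in Rpl22+/-, and efficiency calls were 0 in Rpl22-/- (1) and 1 in H137Y. Footprint calls were then 15 higher and 4 lower in P131S (20 and 4) and 7 and 3 in H137Y (11 and 3). RNA calls were 20 higher and 7 lower in P131S (23 and 8) and 6 and 2 in R98S (9 and 3). The replicate block by clone, which pairs the 2 assays, gave 1 efficiency call in R98S (0) and added Ddx58 in P131S; it ended no other efficiency call.

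With 1 clone left out, RNA calls ranged from 5 to 9 in R98S, 2 to 10 in Rpl11+/-, 1 to 1 in Rpl22+/-, 1 to 2 in Rpl22-/- and 6 to 14 between P131S and H137Y. Footprint calls ranged from 0 to 1 in Rpl11+/-, 9 to 12 in H137Y and 0 to 4 between P131S and H137Y. Efficiency calls ranged from 0 to 1 in Rpl22+/-, 0 to 0 in Rpl22-/-, 0 to 2 in H137Y, 1 to 3 in P131S and 0 to 1 between P131S and H137Y. The sign of Ddx6 changed in 3 comparisons in which it was never called. Its RNA between Rpl22-/- and Rpl22+/- ranged from -0.074 to 0.014, the latter without clone 30. Its footprints in Rpl5+/- ranged from -0.1 without clone 80 to 0.129, and were -0.037 without WT clone 3. Its footprints between P131S and H137Y ranged from -0.031 without P131S clone 63 to 0.115, and were -0.028 without H137Y clone 6. Depth limits Dhx58, at 0 to 200 footprint counts per library.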

Other observations

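RNA helicases outside the DEAD and DEAH symbols were also measured, as a named list of 22, of which 20 were in the table and 19 passed the filter. In H137Y RNA 10 were higher and 1 lower, beside 21% and 20% of all genes, and in P131S 6 were higher and 1 lower, beside 23.7% and 23.4%. Upf1, the helicase of nonsense-mediated decay, rose by 0.435 in H137Y and 0.28 in P131S, and Mov10, a helicase associated with Argonaute proteins, fell by 0.53 and 0.61. In RNA Mov10 was also lower in Rpl5+/- (-0.732), Rpl11+/- (-0.646) and Rpl22-/- (-0.459), and Upf1 in Rpl5+/- (-0.364) and Rpl22-/- (-0.298). Mov10 footprints fell as well, by 0.64 in H137Y and 0.68 in P131S. Among 19 cofactors of these helicases, 9 were higher and 4 lower in P131S RNA and 8 and 2 in H137Y, beside the same shares of all genes. Gpatch4, a nucleolar G-patch protein, gained footprints in R98S (1.42), P131S (1.28) and H137Y (0.93). Pdcd4, an inhibitor of eIF4A, fell in P131S in RNA (-1.15) and footprints (-0.81), while Eif4a1 RNA rose by 0.46. Eif4a1 footprints in P131S changed by -0.048, which was not called (edgeR adjusted p 0.921). All other changes given here are log2 changes called by edgeR against the same WT clones.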
